A study of Mus musculus with 12 samples.

Results

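The response of resting macrophages to the DGAT1 inhibitor T863 was measured by RNA sequencing in 6 of the 12 libraries of the series, chosen by their labels: 3 libraries of untreated macrophages (M0) and 3 of macrophages given 50 µM T863 (M0 + DGAT1i). All cells were bone marrow-derived macrophages of C57BL/6 mice aged 6 to 8 weeks, grown for 7 days with CSF1 at 20 ng/ml, the growth factor that drives the division and survival of macrophages in culture, and collected after 18 h. The other 6 libraries held cells stimulated with 50 ng/ml IFNγ and 20 ng/ml LPS, 3 without and 3 with T863 at the same dose, and they were used here for the shared estimate of spread and for the comparison of both states at the end. The question was which transcripts differ when triglyceride synthesis by DGAT1 is inhibited in cells that have received no inflammatory signal. The labels state no solvent for the M0 cells and do not say that the 3 libraries of a group came from separate animals, so p-values measure the spread between libraries. All 3 treated libraries carry T863 as their source name, whereas the free description of 2 of them gives T864 and T865. A single inhibitor at a single dose was used, and no library of cells lacking Dgat1 is among the 12. The labels and the study's methods name different RNA and library kits, so it is not known whether the reads keep their strand.

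DGAT1 and DGAT2 catalyse the last step of triglyceride synthesis, the joining of a fatty acyl chain to diacylglycerol, and the product is stored in lipid droplets. Fatty acids that are not stored can be oxidised in mitochondria, built into membranes or eicosanoids, or act as ligands of nuclear receptors such as PPARs. Macrophages take up fatty acids and lipoproteins through scavenger receptors, break down cellular debris in lysosomes and recycle its iron through heme oxygenase and ferritin, and bone marrow cells in CSF1 go on dividing until an inflammatory signal arrests them.

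The resting libraries held 5787194 to 6621671 reads assigned to genes, so that 1 CPM (counts per 1000000 reads, with libraries scaled by the TMM method) stood for 6.88 to 7.58 reads. Genes of the macrophage list were found in every resting library, with a summed level of 18278 to 19745 CPM in M0 and 21483 to 23618 CPM with DGAT1i over the 15 members tested, of which 4 were higher and 3 lower (46.7% called, against 24.4% over all genes). Most of the rise in this sum was Lyz2, at 9007 to 10248 CPM in M0 and 11866 to 13968 CPM with DGAT1i, and the median log2 fold change of the list was -0.02. Summed over their lists, monocyte markers stood at 38.8 to 41.4 CPM in M0 and 16.1 to 21.8 CPM with DGAT1i, and B cell markers at 22.3 to 23.2 CPM and 8.71 to 12.6 CPM. Of 7 monocyte markers tested, none was higher and 2 were lower (28.6% called, against 24.4% over all genes), at a median log2 fold change of -0.03. These were Ccr2, most of the sum (30.1 to 31.8 CPM in M0), and Chil3, with 116 reads in M0 and 59 with DGAT1i, whose log2 fold change of -1.01 lost its call without the first DGAT1i library (the log2 fold change of Chil3 was then -0.71, adjusted p = 0.0591, edgeR). F13a1 had 52 and 67 reads and Treml4 9 and 23, and neither was called. Most of the B cell sum was Ighm (19.9 to 20.4 CPM in M0). The only other member tested, Cd79b, had 49 and 23 reads, and its call was lost without M0 library 2 or 3 or DGAT1i library 1 or 2. Pax5 and Ebf1 had 0 reads in the 6 resting libraries, as had the T cell gene Cd3e and the neutrophil gene Ly6g. The neutrophil list stood at 57.1 to 66.0 CPM in M0 and 55.7 to 58.9 CPM with DGAT1i, but the median log2 fold change of its 6 members tested was -0.44, and for 5 of them the groups did not overlap (37.8% over all genes). S100a8 and S100a9 had 156 and 217 reads in M0 and 116 and 158 with DGAT1i, not called, while Csf3r had 527 and 655, and its call was lost in 4 of the 6 fits that left out a library (the same libraries). Osteoclast markers summed to 412 to 484 CPM in M0 and 535 to 613 CPM with DGAT1i, most of it Atp6v0d2 (341 to 421 CPM in M0). Of 7 tested, Atp6v0d2 and Ctsk were higher and Mmp9 lower (42.9% called), at a median of 0.08. The call of Ctsk was lost in 3 of the 6 fits that left out a library. Transcripts encoded in mitochondria took 4.72% to 4.86% of all reads in M0 and 5.56% to 6.19% with DGAT1i. The part of these shifts in the results below was not tested. In RNA of a whole culture, fewer cells of a kind and less RNA per cell cannot be told apart.

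Of 11760 genes tested with edgeR's quasi-likelihood test, 2869 differed between M0 and M0 + DGAT1i at a Benjamini-Hochberg adjusted p under 0.05 (24.4%). The 1298 genes that were higher (11.0%) and the 1571 that were lower (13.4%) were unequal in the size of their change: of 372 genes past 2-fold (3.16%), 51 were higher and 321 lower. Scaling by library size alone gave 885 higher and 2092 lower genes, with a median log2 fold change of -0.05 in place of 0.00. The 3 values of 1 group lay wholly above or below those of the other in 4442 genes (37.8%). On the first principal component, which held 54.9% of the variance of the 6 resting libraries, the groups were apart. Genes of cell division were among those that fell most, and genes of glutathione and iron handling among those that rose most.

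**Figure D1:**
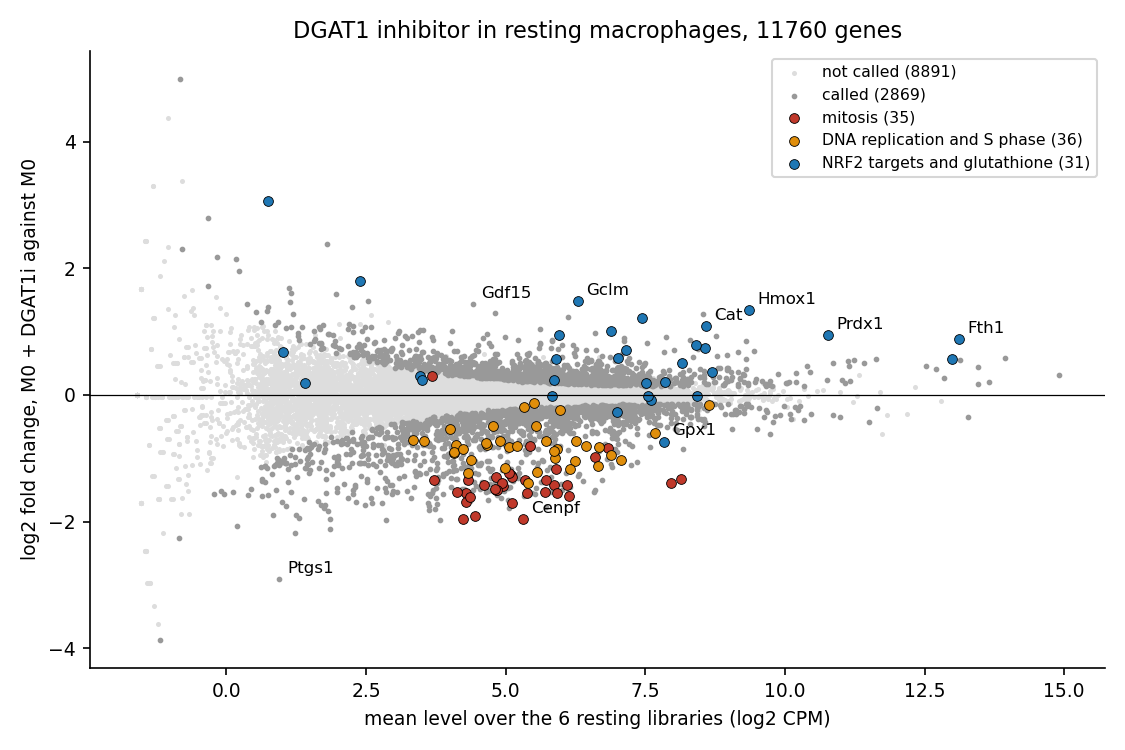
Each point is a gene tested, with its mean level (log2 CPM) on the horizontal axis and its log2 fold change, M0 + DGAT1i against M0, on the vertical axis; dark grey points were called, light grey points were not, and colours mark the mitosis, S phase and NRF2 lists. Among changes past 2-fold, 321 genes lie on the lower side and 51 on the higher side.

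Dgat1 transcript, which encodes the enzyme that T863 inhibits, stood at 10.0, 14.4 and 13.8 CPM in M0 and at 14.6, 16.3 and 16.0 CPM with DGAT1i. The groups did not overlap, but the log2 fold change of 0.29 ± 0.13 (SE, n = 3) did not pass the test (adjusted p = 0.107, edgeR). As the compound acts on the protein, the transcript does not check the labels. Dgat2 had 5 reads in M0 and 17 with DGAT1i over 3 libraries each and was too low to test.

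Genes of mitosis fell together. They encode cyclin B and its kinase, the anaphase-promoting complex, the kinesins and centromere proteins of the spindle, and the checkpoint that watches over it. Of 35 members tested, 34 were lower with DGAT1i and none was higher, against 13.4% lower over all genes tested. The median log2 fold change of the list was -1.42, beside 0.00 over all genes, and 31 members were lower by more than 2-fold. Their summed level was 2665 to 3166 CPM in M0 and 1053 to 1239 CPM with DGAT1i. Ighm of the B cell list and the monocyte markers Ccr2 and Chil3 were lower in the same libraries, the neutrophil list had a median of -0.44, and their part in this result was not tested. Only Pttg1, which encodes securin, the guard of sister chromatid cohesion, stood outside, at a log2 fold change of 0.31 ± 0.13 (SE; adjusted p = 0.0864, edgeR).

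Cenpf, a protein of the outer kinetochore (chr1:189640606-189688086, minus strand; gene positions are those of GENCODE M21 on GRCm38), stood at 80.6, 80.2 and 73.4 CPM in M0 and at 20.7, 17.7 and 21.4 CPM with DGAT1i. This 3.90-fold lower level was a log2 fold change of -1.96 ± 0.09 (SE, n = 3; adjusted p = 1.28e-23, edgeR). Every M0 library was above every treated library by a wide margin, and the same was true of the genes that follow. Cdc20, the activator of the anaphase-promoting complex (chr4:118432901-118437352, minus strand), went from 39.1, 37.6 and 33.1 CPM to 10.1, 7.10 and 10.8 CPM, a log2 fold change of -1.96 ± 0.13. Ccnb2, a B-type cyclin that drives entry into mitosis (chr9:70407692-70421547, minus strand), went from 45.9, 45.5 and 35.2 CPM to 9.83, 10.5 and 13.2 CPM, a log2 fold change of -1.91 ± 0.12. Smaller but like changes were measured for Aspm, a spindle pole protein (-1.79 ± 0.10), for Kif20a, a kinesin of the central spindle (-1.71 ± 0.10), and for Bub1b, a checkpoint kinase (-1.54 ± 0.09). Prc1, which bundles microtubules between the separating chromosomes, and Anln, which anchors the ring that divides the cell, had log2 fold changes of -1.54 ± 0.08 and -1.53 ± 0.08. Exons of Kif20a overlap those of Cdc23 on the opposite strand over 29.3% of their length, so that reads of both could be shared.

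Many genes of mitosis are known to carry CCAAT boxes and a cell cycle homology region (CHR) close to their start. The stretches before the starts of Ccnb2 and Cdc20 are shown because both genes are among those that fell most. They are RefSeq sequences on GRCm38.p6, at chr9:70421555-70421704 and chr4:118437353-118437493, both read 5′ to 3′ on the minus strand, with CCAAT and the CHR letters TTTGAA in capitals.

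Ccnb2: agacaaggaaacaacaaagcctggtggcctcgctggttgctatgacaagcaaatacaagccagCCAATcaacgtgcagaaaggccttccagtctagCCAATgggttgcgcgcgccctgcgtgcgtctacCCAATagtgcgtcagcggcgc

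Cdc20: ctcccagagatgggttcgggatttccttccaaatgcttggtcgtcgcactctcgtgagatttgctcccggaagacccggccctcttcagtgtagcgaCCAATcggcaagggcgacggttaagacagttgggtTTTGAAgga

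The stretch of Ccnb2 holds CCAAT 3 times, and that of Cdc20 holds 1 CCAAT and 1 CHR close to the start. Over the 250 bases before the start, on both strands, CCAAT was found in 23 of 31 promoters of 30 mitosis genes with an entry (74.2%) and in 35.6% of the 11398 promoters of 8938 genes tested. The CHR letters, TTTGAA or TTCGAA, were found in 14 of these 31 promoters (45.2%) and in 12.4% of all. Such letters are a description of sequence and not evidence of a bound factor.

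Genes of DNA replication and S phase fell as well, by less. Of 36 members tested, 34 were lower and none higher, against 13.4% and 11.0% over all genes, with a median log2 fold change of -0.81 and a summed level of 2712 to 3084 CPM in M0 and 1682 to 1879 CPM with DGAT1i. E2f1, a transcription factor of S phase entry, and Rfc2, a subunit of the clamp loader, did not pass the test. Rrm2, the regulated subunit of the reductase that makes deoxynucleotides (chr12:24708241-24714146, plus strand), stood at 107, 117 and 96.1 CPM in M0 and at 47.8, 43.0 and 51.3 CPM with DGAT1i. Its log2 fold change was -1.17 ± 0.08, and Rrm1, the other subunit, had a log2 fold change of -1.03 ± 0.06. Tk1, the thymidine kinase that salvages a nucleoside for replication, fell from 66.1, 72.8 and 66.3 CPM to 29.1, 22.1 and 27.1 CPM. With a log2 fold change of -1.39 ± 0.09 it lay close to the median of the mitosis genes, and Mcm7, part of the replicative helicase, had -1.04 ± 0.07. The E2F letters TTTGGCGC or TTTCCCGC were found in 5 of 34 S phase promoters (14.7%), in 1 of 31 mitosis promoters (3.23%) and in 2.55% of those of all genes tested.

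Histone genes of the replication-dependent clusters, a list added after values were seen, had 51 of 55 tested members lower and 1 higher, against 13.4% and 11.0% over all genes (24.4% in all), at a median log2 fold change of -1.38. Their summed level was 3465 to 4574 CPM in M0 and 1669 to 1822 CPM with DGAT1i. These genes have near-identical copies, so that the count of a single member such as Hist1h2af is uncertain. Among 35 regulators of the cycle, also listed after values were seen, 21 were lower and 2 higher (65.7% called, against 24.4% over all genes). Foxm1, the transcription factor of the G2 and M phases, stood at 50.3, 55.0 and 44.3 CPM in M0 and at 17.3, 14.9 and 19.9 CPM with DGAT1i, with a log2 fold change of -1.52. Ccnd1 and Cdk6, a D-type cyclin and its kinase that respond to growth factors, had smaller log2 fold changes of -0.54 ± 0.05 and -0.47 ± 0.06. Cdkn1a, the p21 inhibitor of cyclin-dependent kinases and a target of p53, was lower too, at 144, 154 and 145 CPM in M0 and 113, 115 and 127 CPM with DGAT1i (log2 fold change -0.32 ± 0.06, adjusted p = 1.38e-05, edgeR). Sesn1, another p53 target, had a log2 fold change of -0.57 ± 0.06. Of 21 members tested of the list of BCL2 relatives and p53 targets, 3 were higher and 4 lower (33.3% called), at a median of -0.14.

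**Figure D2:**
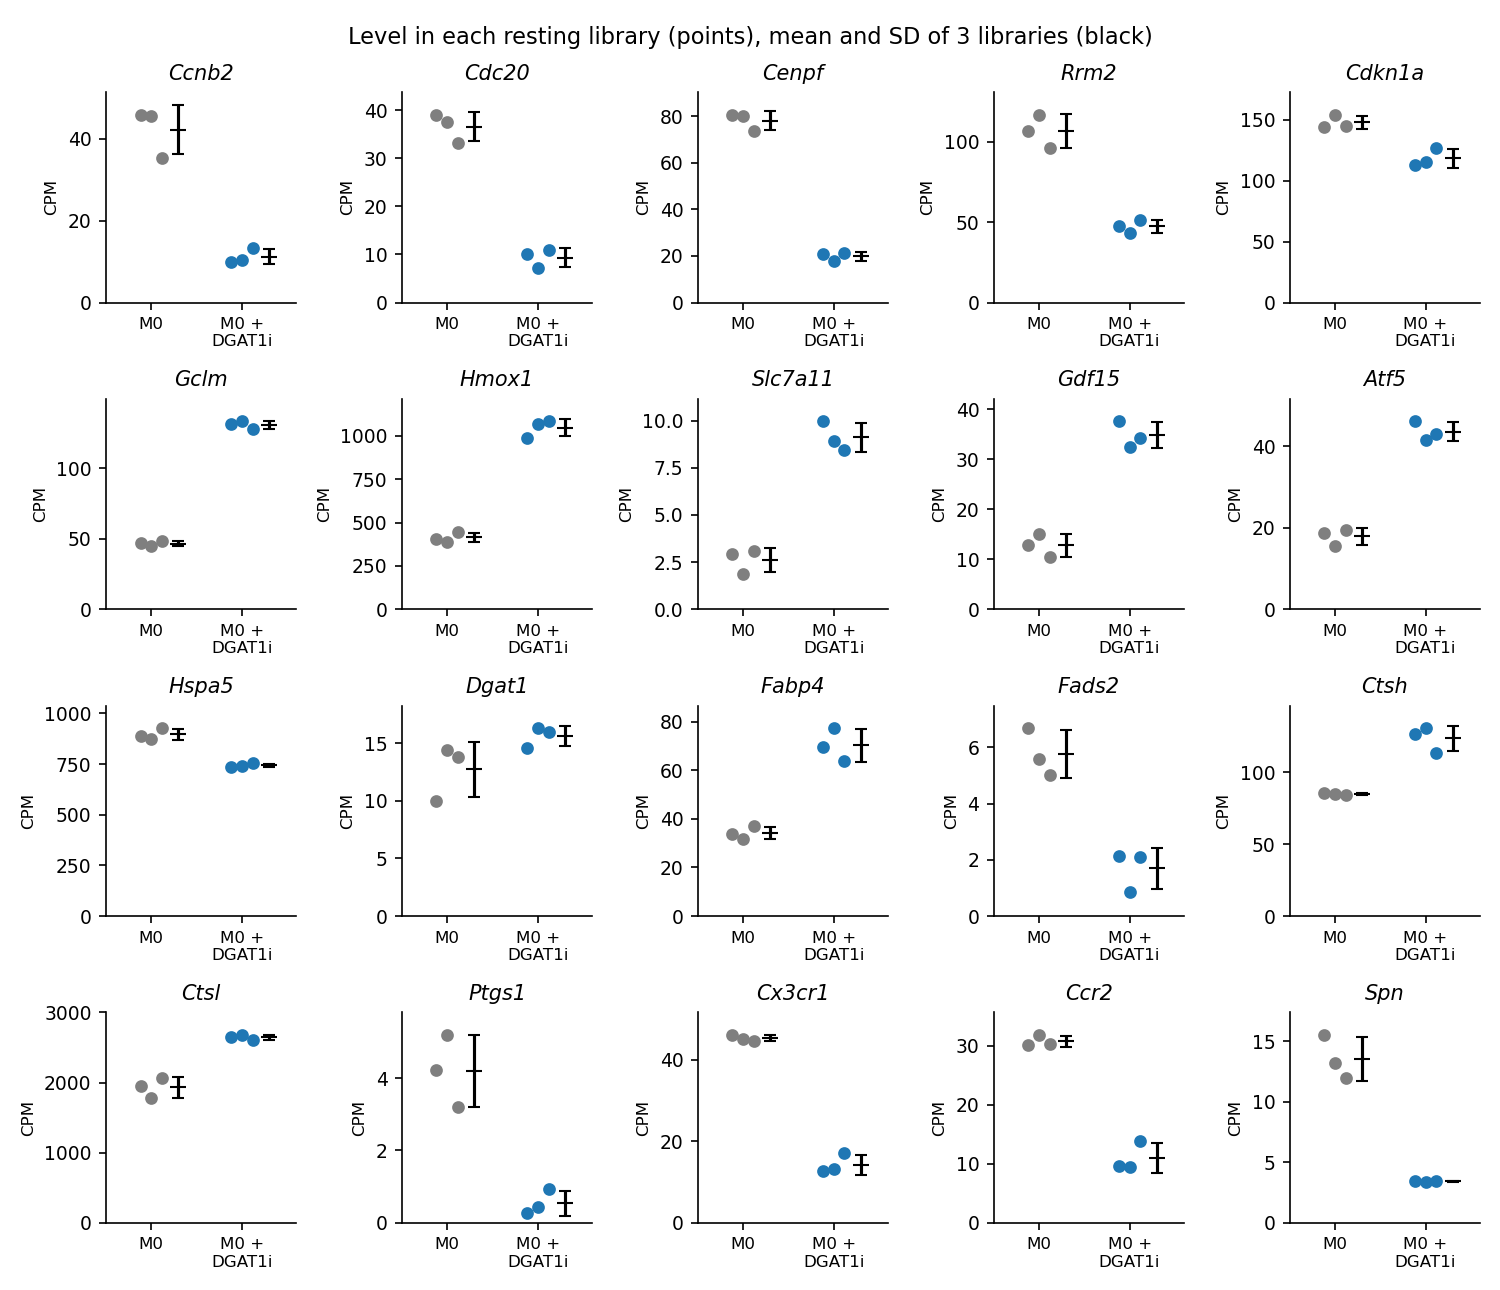
Levels of 20 genes in CPM in the 3 M0 and 3 M0 + DGAT1i libraries, each panel on its own axis; points are libraries, and the line and bar are the mean and SD. The treated libraries of Ccnb2 lie between 9.83 and 13.2 CPM, below the M0 libraries at 35.2 to 45.9 CPM, and those of Gclm lie between 128 and 133 CPM, above M0 at 44.6 to 48.3 CPM.

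Genes of the antioxidant and iron program that the factor NRF2 controls rose. This program makes glutathione, reduces peroxides, conjugates electrophiles, breaks down heme and stores or exports its iron. Of 31 members tested, 21 were higher and 2 lower, against 11.0% higher and 13.4% lower over all genes, and the median log2 fold change was 0.57. The summed level of the list was 18108 to 19121 CPM in M0 and 29778 to 31560 CPM with DGAT1i, and most of it was ferritin, whose 2 chains took 1.53% to 1.62% of all reads in M0 and 2.48% to 2.61% with DGAT1i.

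Gclm, the modifier subunit of the enzyme that limits glutathione synthesis (chr3:122245557-122270732, plus strand), stood at 46.9, 44.6 and 48.3 CPM in M0 and at 131, 133 and 128 CPM with DGAT1i. The libraries within a group were close to each other, and the 2.81-fold higher level was a log2 fold change of 1.49 ± 0.06 (SE, n = 3; adjusted p = 8.98e-26, edgeR). Slc7a11, the cystine importer that feeds glutathione synthesis, rose from 2.91, 1.86 and 3.06 CPM to 9.96, 8.94 and 8.45 CPM, at a log2 fold change of 1.80 ± 0.40. Gsta3, a glutathione transferase, had 9 reads in M0 and 81 with DGAT1i over 3 libraries each, and its log2 fold change of 3.07 ± 0.42 rests on those few reads. Gstm1, another transferase (1.02 ± 0.06), Mgst1, a transferase of membranes (0.94 ± 0.07), and Srxn1, which repairs oxidised peroxiredoxins (0.72 ± 0.06), were also higher on the log2 scale.

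Hmox1, the heme oxygenase that frees iron from heme (chr8:75093621-75100589, plus strand), stood at 406, 391 and 446 CPM in M0 and at 989, 1068 and 1084 CPM with DGAT1i. Its 2.53-fold higher level was a log2 fold change of 1.34 ± 0.06 (SE, n = 3; adjusted p = 8.75e-26, edgeR), with no overlap of the groups. Fth1, the ferritin heavy chain that stores iron, went from 6775, 6382 and 6611 CPM to 12583, 12002 and 11850 CPM, and Slc40a1, the ferroportin that exports it, from 112, 103 and 128 CPM to 287, 273 and 238 CPM. Their log2 fold changes were 0.88 ± 0.05 and 1.22. Transcripts for iron release, storage and export were thus each higher, and the ferritin light chain Ftl1, whose reads may be shared with the pseudogene Ftl1-ps1 (near-identical over 94.0% of the transcript), had a log2 fold change of 0.57. Cat, the catalase that splits hydrogen peroxide, stood at 261, 255 and 275 CPM in M0 and at 570, 559 and 549 CPM with DGAT1i. Prdx1, a peroxiredoxin, stood at 1237, 1244 and 1303 CPM and at 2521, 2486 and 2272 CPM. The members that fell were both glutathione peroxidases, Gpx1 (312, 295 and 276 CPM against 174, 175 and 180 CPM, log2 fold change -0.74) and Gpx4, which protects membrane lipids (log2 fold change -0.26 ± 0.06).

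NRF2 binds the antioxidant response element (ARE). The stretches before the starts of Gclm (chr3:122245407-122245556) and Prdx1 (chr4:116685449-116685543) are shown because both genes rose and both hold the ARE core TGACNNNGC, in capitals on either strand. They are RefSeq sequences on GRCm38.p6, plus strand, 5′ to 3′.

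Gclm: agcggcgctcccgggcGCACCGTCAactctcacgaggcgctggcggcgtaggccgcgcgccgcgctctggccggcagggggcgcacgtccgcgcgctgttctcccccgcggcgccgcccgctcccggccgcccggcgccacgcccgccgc

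Prdx1: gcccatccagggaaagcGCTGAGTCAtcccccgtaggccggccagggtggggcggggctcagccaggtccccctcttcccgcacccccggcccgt

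In both stretches the core is read on the minus strand. Over 250 bases and both strands, it was found in 7 of 38 promoters of 27 genes of the list (18.4%), in 7 of 31 mitosis promoters (22.6%) and in 11.8% of those of all genes tested, so these letters did not mark out the list. A distal element, as is known for Hmox1, would lie outside this window.

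Of the program that ATF4 drives when amino acids run short or mitochondria are stressed, a few members rose by more than 2-fold and most did not pass the test. Of 28 members tested, 9 were higher and 2 lower, against 11.0% and 13.4% over all genes, with a median log2 fold change of 0.15. Gdf15, a stress-induced cytokine that acts on feeding (chr8:70629393-70632456, minus strand), stood at 12.9, 15.0 and 10.4 CPM in M0 and at 37.6, 32.5 and 34.3 CPM with DGAT1i. The groups were far apart, at a log2 fold change of 1.44 ± 0.12 (SE, n = 3; adjusted p = 3.46e-15, edgeR). Trib3, a pseudokinase that ATF4 and CHOP induce, stood at 1.598, 3.995 and 2.78 CPM in M0 and at 5.58, 10.1 and 6.73 CPM with DGAT1i, for a log2 fold change of 1.39 ± 0.23. Atf4 itself (0.25 ± 0.06), Slc3a2, the heavy chain of the cystine importer (0.38 ± 0.05), and Mthfd2, an enzyme of mitochondrial folate metabolism (0.64), were higher by less on the log2 scale. Slc7a11 belongs to this list as well as to that of NRF2. Psat1, an enzyme of serine synthesis and a known ATF4 target, was lower, at 56.4, 58.9 and 53.05 CPM in M0 and 30.7, 33.4 and 37.7 CPM with DGAT1i (log2 fold change -0.72). Ddit3, which encodes CHOP, had a log2 fold change of 0.05 ± 0.11 and did not pass the test.

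Atf5, a factor of the mitochondrial unfolded protein response, stood at 18.6, 15.4 and 19.5 CPM in M0 and at 46.1, 41.5 and 43.0 CPM with DGAT1i, for a log2 fold change of 1.29 ± 0.10 (adjusted p = 4.27e-16, edgeR). Of 14 members of the list of mitochondrial chaperones and proteases, Atf5 included, 4 were higher, against 11.0% over all genes, and none was lower, at a median of 0.13. The chaperones Hspd1 and Hspa9 had log2 fold changes of 0.00 ± 0.06 and 0.10 ± 0.05 that did not pass the test. Dnaja3, the co-chaperone of Hspa9, was higher at 0.24 ± 0.08 (adjusted p = 0.0153, edgeR), a call lost in both DESeq2 fits and with scaling by library size alone. Without the first M0 library or the third DGAT1i library, the log2 fold change of Dnaja3 was 0.21 each time and was not called (adjusted p = 0.0806 and 0.0689, edgeR). Of 25 members of the unfolded protein response of the ER, 1 was higher and 10 lower (13.4% lower over all genes), at a median of -0.13, and without the second DGAT1i library 5 were lower. Hspa5, the main chaperone of the ER, stood at 887, 875 and 928 CPM in M0 and at 737, 742 and 753 CPM with DGAT1i, for a log2 fold change of -0.27 ± 0.05. Hsp90b1, another ER chaperone, and Sdf2l1, a cofactor of Hspa5, had log2 fold changes of -0.21 ± 0.05 and -0.30 ± 0.07.

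**Figure D3:**
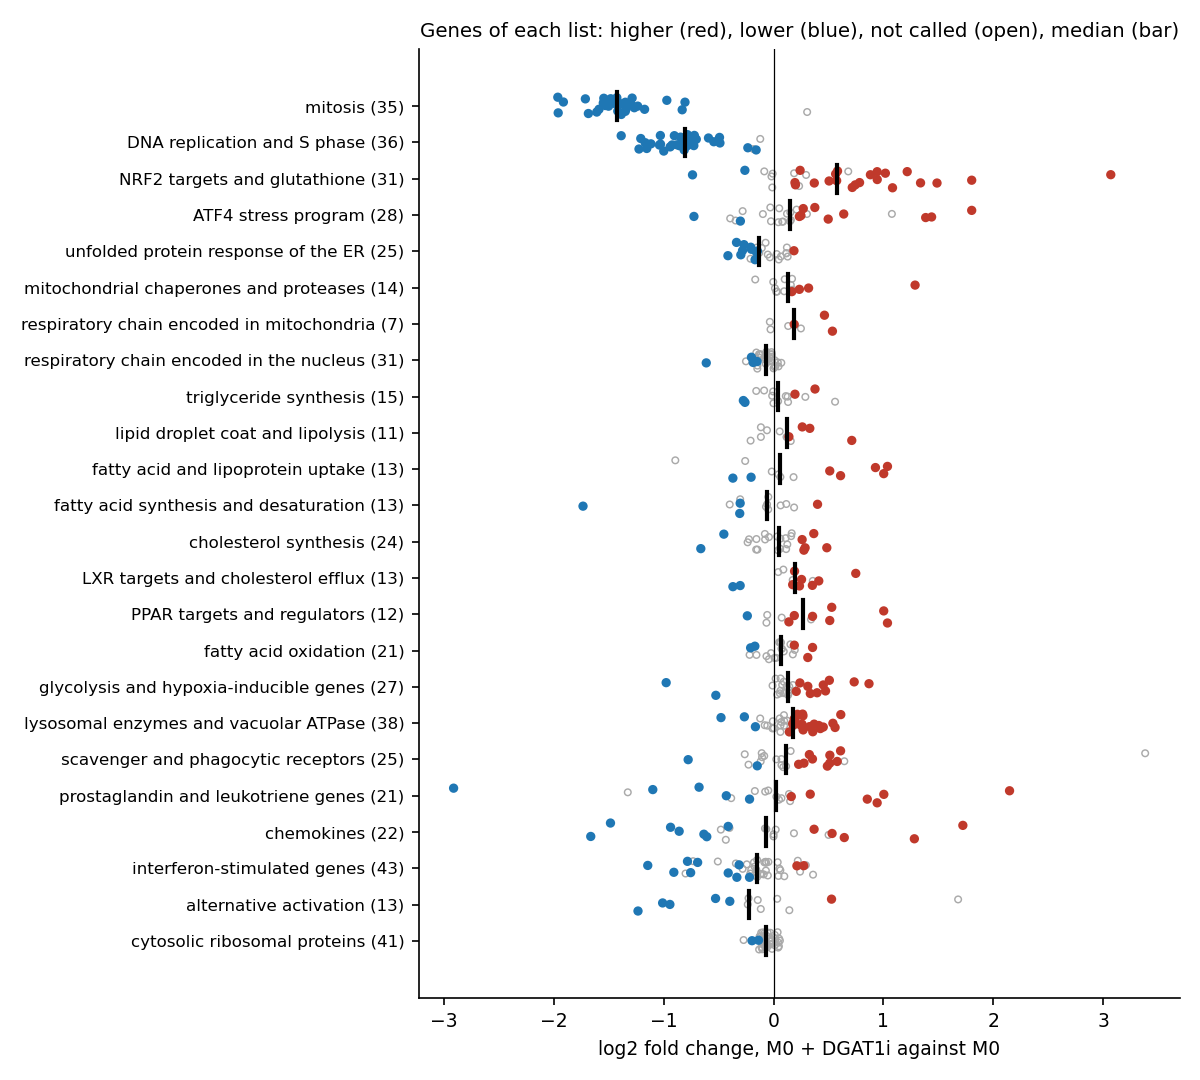
Log2 fold changes, M0 + DGAT1i against M0, of the members tested of 24 gene lists; red points were called higher, blue points lower, open points were not called, and the bar is the list's median. Mitosis genes lie on the lower side, at a median of -1.42, and the NRF2 list on the higher side, at 0.57.

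Of 15 triglyceride synthesis genes tested, 2 were higher and 2 lower (26.7% called, near the 24.4% over all genes), at a median of 0.04, and none changed by more than 2-fold. Lpin2, a phosphatidate phosphatase, was higher at a log2 fold change of 0.38 ± 0.06, and Acsl5, which activates fatty acids, was lower at -0.26 ± 0.06. Of 11 genes of the lipid droplet coat and of lipolysis, 4 were higher, against 11.0% over all genes, and none was lower. Hilpda, an inhibitor of the lipase ATGL, stood at 5.23, 4.53 and 4.87 CPM in M0 and at 7.57, 7.24 and 9.11 CPM with DGAT1i, for a log2 fold change of 0.71. Pnpla2, which encodes ATGL, the lipase that starts triglyceride breakdown, was higher as well, at 0.33 ± 0.07, as was the coat protein gene Plin3, at 0.26 ± 0.06. Plin2, the most abundant coat protein gene of the list, stood at 829 ± 48.1 CPM in M0 and 913 ± 19.9 CPM with DGAT1i (SD, n = 3), a log2 fold change of 0.14 ± 0.05 whose call was lost in 4 of the 6 fits that left out a library.

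Of 13 uptake genes tested, 5 were higher and 2 lower (53.8% called, against 24.4% over all genes), at a median of 0.06. Their log2 fold changes ran from -0.89 to 1.04, and the uptake genes named here are only members that were called higher. Fabp4, a fatty acid carrier of the cytosol and a PPARγ target (chr3:10204088-10208576, minus strand), stood at 33.9, 31.8 and 36.9 CPM in M0 and at 69.7, 77.4 and 63.6 CPM with DGAT1i. The groups were apart, at a log2 fold change of 1.04 ± 0.09 (SE, n = 3; adjusted p = 3.24e-14, edgeR). The related Fabp5 stood at 321, 286 and 344 CPM and at 672, 629 and 508 CPM, and Cd36, a fatty acid and lipoprotein receptor, at 2217, 2175 and 2499 CPM and at 3276, 3384 and 3165 CPM. Angptl4, a secreted inhibitor of lipoprotein lipase, had a log2 fold change of 1.00 ± 0.23, and Rxra, the partner of PPARs on DNA, of 0.53 ± 0.07. Of 12 PPAR targets and regulators tested, several of which are the uptake genes just named, 7 were higher and 1 lower (66.7% called), at a median of 0.27. Cpt1a, which admits fatty acids to mitochondria and is a PPAR target, was higher at 0.36 ± 0.06, while of 21 fatty acid oxidation genes 3 were higher and 2 lower (23.8% called), a share near that of all genes.

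Of 13 fatty acid synthesis and desaturation genes tested, 1 was higher and 3 lower (30.8% called, near the 24.4% over all genes), at a median of -0.06. Fads2, the desaturase at the start of arachidonic acid synthesis, stood at 6.68, 5.59 and 5.01 CPM in M0 and at 2.13, 0.852 and 2.11 CPM with DGAT1i. Every treated library was below every M0 library, at a log2 fold change of -1.74 ± 0.29 (SE, n = 3; adjusted p = 3.7e-06, edgeR). Fasn, the fatty acid synthase, and Srebf1, the factor that drives it, were lower at -0.31 ± 0.06 and -0.30 ± 0.07, and Scd2, a desaturase of saturated fatty acids, was higher at 0.40 ± 0.08. Of 24 cholesterol synthesis genes, 5 were higher and 2 lower (29.2% called), at a median of 0.05. Hmgcs1, an early enzyme of that pathway, was higher at 0.28 ± 0.07, whereas Insig1, which holds SREBP back in the ER, was lower at -0.45 ± 0.08. Of 13 LXR targets and efflux genes, 7 were higher and 2 lower (69.2% called), at a median of 0.19. Mylip, the LXR target that marks the LDL receptor for breakdown, stood at 34.0, 34.1 and 43.3 CPM in M0 and at 65.1, 58.9 and 63.1 CPM with DGAT1i, for a log2 fold change of 0.75 ± 0.08, and Npc1, which moves cholesterol out of lysosomes, was higher at 0.41 ± 0.05. Abca1, the main cholesterol exporter and an LXR target, was lower at -0.37 ± 0.06, with 333, 297 and 288 CPM in M0 and 236, 255 and 219 CPM with DGAT1i.

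Among 27 glycolytic and hypoxia-inducible genes, 10 were higher and 2 lower (44.4% called, against 24.4% over all genes), at a median of 0.13. Pfkfb3, which makes the activator of phosphofructokinase, stood at 25.9, 29.0 and 27.3 CPM in M0 and at 52.5, 50.0 and 47.9 CPM with DGAT1i, for a log2 fold change of 0.87 ± 0.08 (adjusted p = 1.15e-12, edgeR). Hk2, a hexokinase, went from 57.4, 58.7 and 61.1 CPM to 96.7, 104 and 94.2 CPM, at 0.73 ± 0.07. Slc16a3, a lactate exporter, and Aldoa, an aldolase, were higher at log2 fold changes of 0.47 ± 0.07 and 0.45 ± 0.05. Of 7 tested respiratory chain genes encoded in mitochondria, 3 were higher and none lower (42.9% called, against 24.4% over all genes), at a median of 0.19. The call of mt-Nd1 was lost without the second DGAT1i library and with scaling by library size alone. Of 31 respiratory chain genes encoded in the nucleus, none was higher and 4 were lower (12.9%, beside 13.4% lower over all genes), at a median of -0.07. The lists were not tested against each other. mt-Co1, a subunit of complex IV, stood at 4881, 5152 and 5028 CPM in M0 and at 6525, 7437 and 6806 CPM with DGAT1i, for a log2 fold change of 0.46, and its reads may be shared with copies in the nuclear genome. Ndufs8, a nuclear-encoded subunit of complex I, was lower at -0.61 ± 0.11.

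Of 38 lysosomal enzymes, transporters and subunits of the vacuolar ATPase, 21 were higher and 3 lower, against 11.0% and 13.4% over all genes, at a median log2 fold change of 0.18, and leaving out a library gave 16 to 21 higher. Their summed level was 50361 to 55368 CPM in M0 and 60110 to 65836 CPM with DGAT1i. Ctsh, a cathepsin (chr9:90054152-90076089, plus strand), stood at 85.6, 84.8 and 84.0 CPM in M0 and at 126, 131 and 113 CPM with DGAT1i, for a log2 fold change of 0.54. Ctsl, an abundant cathepsin, went from 1946, 1780 and 2068 CPM to 2644, 2681 and 2604 CPM, at 0.45 ± 0.06. Of 25 scavenger and phagocytic receptors, 9 were higher and 2 lower (44% called, against 24.4% over all genes), at a median of 0.11. Msr1, the scavenger receptor A, and Mertk, the receptor for dying cells, were higher at log2 fold changes of 0.61 and 0.58 ± 0.08, and Cd68, a glycoprotein of macrophage lysosomes, at 0.35 ± 0.05. Cd14, the co-receptor for LPS, was lower at -0.78 ± 0.06, from 168 ± 16.1 to 98.2 ± 7.24 CPM (SD, n = 3).

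Genes of eicosanoid synthesis changed in both directions, with 6 of 21 tested higher and 5 lower, against 11.0% and 13.4% over all genes. Ptgs1, the constitutive cyclooxygenase COX-1 (chr2:36230426-36252272, plus strand), stood at 4.21, 5.19 and 3.20 CPM in M0 and at 0.266, 0.426 and 0.924 CPM with DGAT1i, from 91 and 12 reads. All treated libraries were below all M0 libraries, and the log2 fold change of -2.91 ± 0.40 (SE, n = 3; adjusted p = 5.61e-08, edgeR) was the lowest of the list. Ptgs2, the inducible cyclooxygenase, had 8 and 3 reads and was not called. Tbxas1, the thromboxane synthase, was lower at -0.43 ± 0.06, and Hpgd, which inactivates prostaglandins, at -1.10 ± 0.21. Ptger2, a PGE2 receptor, was higher, at 5.96, 5.86 and 5.57 CPM in M0 and 13.2, 10.6 and 11.1 CPM with DGAT1i (log2 fold change 1.00), and Pla2g7, a secreted phospholipase that cleaves oxidised lipids, rose by a log2 fold change of 0.85 ± 0.11. Ptges, a PGE2 synthase, rose by 2.15 on the log2 scale from 8 reads to 38, and by 1.76 to 2.92 when a library was left out.

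Cx3cr1 and Ccr2, receptors that guide monocytes, were among the genes that fell by more than 2-fold. Of 22 chemokines and receptors tested, 5 were higher and 7 lower, against 11.0% and 13.4% over all genes, at a median of -0.07. Cx3cr1, the fractalkine receptor (chr9:119901616-120069879, minus strand), stood at 46.1, 45.1 and 44.6 CPM in M0 and at 12.6, 13.1 and 17.0 CPM with DGAT1i. This was 3.17-fold lower, a log2 fold change of -1.66 ± 0.11 (SE, n = 3; adjusted p = 8.89e-19, edgeR). Ccr2, the CCL2 receptor and itself a monocyte marker, stood at 30.1, 31.8 and 30.2 CPM and at 9.56, 9.37 and 13.9 CPM, and Ccl9, an abundant chemokine of these cells, at 381, 425 and 362 CPM and at 209, 208 and 227 CPM. Their log2 fold changes were -1.48 ± 0.13 and -0.86 ± 0.06. Of the other monocyte markers, Chil3 was also lower, as given above, and none was higher. Ccl3, an inflammatory chemokine, and Cxcr4, the CXCL12 receptor, were higher at log2 fold changes of 0.37 ± 0.09 and 0.53 ± 0.08.

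Several inflammatory genes had no reads or few in resting cells. Il6, Ido1, Nos2 and Il12b had 0 reads in the 6 resting libraries, and Il1b had 7 reads in M0 and 2 with DGAT1i. Of 21 cytokine and inflammasome genes tested, 4 were higher and 2 lower (28.6% called), at a median of 0.00. Of 43 interferon-stimulated genes, 2 were higher and 9 lower (25.6% called), at a median of -0.15. Both shares lie near the 24.4% over all genes tested. Mx2 and Mx1 had log2 fold changes of -1.15 ± 0.24 and -0.78 ± 0.15, and Ly6e of -0.69 ± 0.10. Of 13 genes of alternative activation tested, 1 was higher and 5 lower (46.2% called): Irf4, a factor of IL-4 signalling, had a log2 fold change of -1.23 ± 0.32, Clec7a, the β-glucan receptor, of -0.53 ± 0.08 and Mrc1, the mannose receptor, of -0.40 ± 0.08, whereas Tgm2, a transglutaminase, had 0.53 ± 0.07.

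Some genes were named only by the size of their change or by their p-value. Spn, the sialomucin CD43 of leukocytes (chr7:127132232-127137823, minus strand), stood at 15.5, 13.2 and 11.97 CPM in M0 and at 3.45, 3.41 and 3.43 CPM with DGAT1i, for a log2 fold change of -1.97 ± 0.19 (SE, n = 3; adjusted p = 8.35e-13, edgeR). Nes, the intermediate filament nestin, was lower, at 170, 186 and 151 CPM in M0 and at 64.8, 63.9 and 70.7 CPM with DGAT1i. Clec4d, a C-type lectin that recognises mycobacterial glycolipid (chr6:123262111-123275265, plus strand), was higher, at 241, 214 and 264 CPM in M0 and at 618, 609 and 510 CPM with DGAT1i. Jag1, a Notch ligand, stood at 43.7, 43.3 and 47.8 CPM in M0 and at 96.7, 103 and 117 CPM with DGAT1i. The log2 fold changes of these 3 genes were -1.35, 1.27 and 1.23, and none of their groups overlapped. Of 28 genes of actin, adhesion and matrix, 7 were higher and 10 lower (60.7% called, against 24.4% over all genes), at a median of 0.08. Actb, the cytoplasmic actin, Itga6, a laminin receptor subunit, and Fn1, the matrix protein fibronectin, were lower at -0.35 ± 0.06, -0.38 ± 0.05 and -0.94 ± 0.22. Vim, a filament of the cytoskeleton, and Lgals3, a galactose-binding lectin, were higher at 0.55 ± 0.05 and 0.57 ± 0.05. Ighm, the immunoglobulin heavy chain of the B cell marker list, was lower at -1.16 ± 0.15.

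The response in resting cells was set beside that in cells stimulated with IFNγ and LPS by testing the difference between both log2 fold changes, each against its own untreated group. The difference passed the test in 2171 of 11760 genes (18.5%). Of the 2869 genes called in resting cells and the 3508 called in stimulated cells, 1151 were shared, which is 40.1% of the former and 32.8% of the latter. Over all genes tested, 24.4% were called in resting cells, and 13.5% were higher and 16.3% lower in stimulated cells. Of the shared genes, 875 changed in the same direction in both states and 276 in opposite directions. Mitosis genes left little to compare: the median member had 1132 reads over the 3 M0 libraries and 18 over the 3 stimulated libraries. Bub1b had 39 reads in stimulated cells without and 41 with DGAT1i. The response differed in 13 of 35 mitosis genes, with the lower log2 fold change in resting cells each time. It differed in 10 of 36 S phase genes, lower in resting cells in 9 and higher in 1. Of 55 histone genes it differed in 33, lower in resting cells in 31 and higher in 2.

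**Figure D4:**
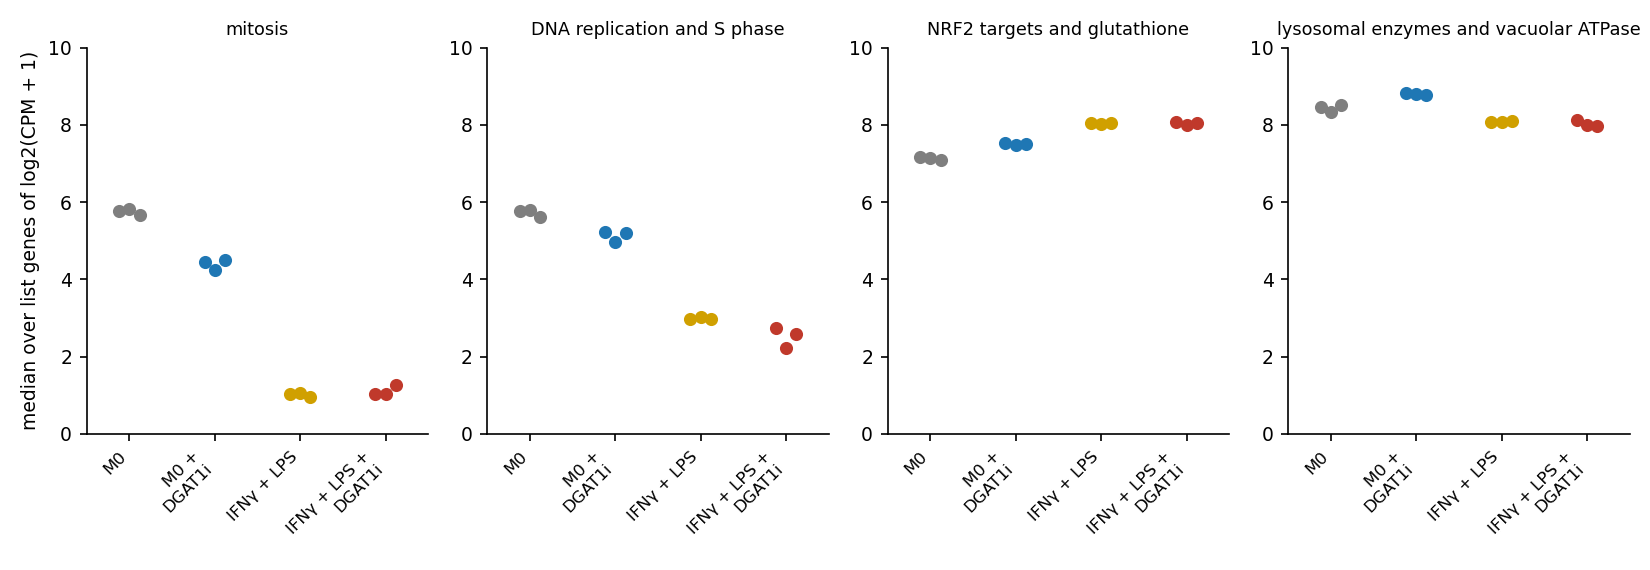
Median log2(CPM + 1) of the members of 4 gene lists (mitosis, S phase, NRF2 and lysosome) in each of the 12 libraries, points by group. The mitosis list lies at 5.67 to 5.82 in M0, at 4.25 to 4.49 in M0 + DGAT1i and at 0.95 to 1.06 in cells stimulated with IFNγ and LPS.

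Of the 31 NRF2 targets, 21 were higher and 2 lower in resting cells, and 21 were higher and 3 lower in stimulated cells, where 13.5% of all genes tested were higher and 16.3% lower, with medians of 0.57 in resting and 0.37 in stimulated cells. The response differed in 19 of the 31 genes, with a log2 fold change that was greater in resting cells for 13 and smaller for 6. Gclm rose by 1.49 in resting and 0.93 in stimulated cells on the log2 scale, a difference of 0.56, whereas Slc40a1 rose by 1.22 and 2.07, a difference of -0.86. Of 28 ATF4 list members, 9 were higher and 2 lower in resting cells, and 3 were higher and 16 lower in stimulated cells, with medians of 0.15 and -0.28; the response differed in 17, with the greater log2 fold change in resting cells each time. Gdf15 had a log2 fold change of 1.44 in resting and 0.10 in stimulated cells, Atf5, of the mitochondrial list, of 1.29 and 0.07, and Trib3 of 1.39 and -0.42. Psat1 was lower in both, by -0.72 and -1.22. The response differed in 8 of 38 lysosomal genes, near the 18.5% of all genes tested.

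**Figure D5:**
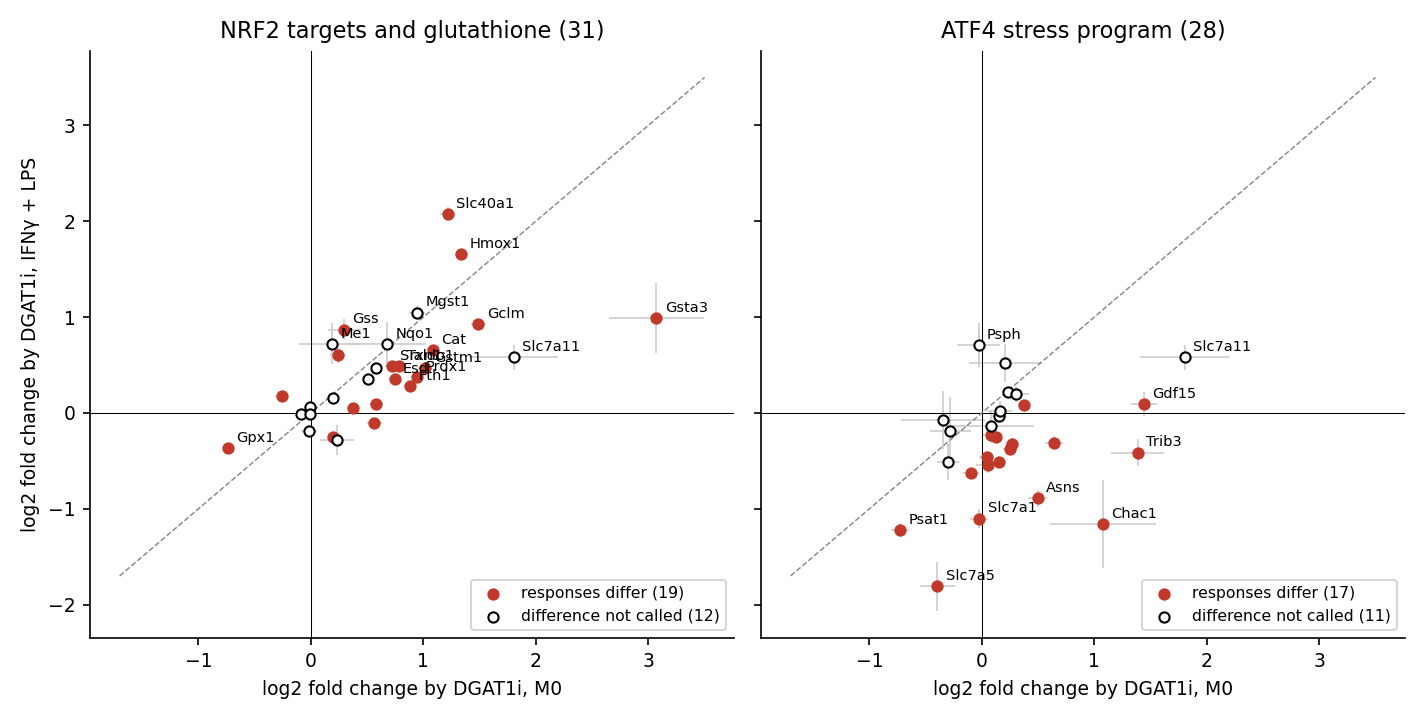
Log2 fold change with DGAT1i in resting (horizontal) and IFNγ and LPS stimulated (vertical) macrophages for the 31 NRF2 and 28 ATF4 genes tested, with SE bars and a dashed line where both are equal; filled points are genes whose responses differ by the interaction test. The 17 ATF4 genes that differ lie below the line, and the 19 NRF2 genes that differ lie on both sides of it.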

How the data were processed

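Per the labels, macrophage RNA was sequenced on an Illumina instrument. The authors deposited whole-number read counts per gene for 12 libraries; the submitters' notes name GRCm38 and DESeq2, and the sources used here give neither aligner nor counter. Identifiers were matched to GENCODE M21 (47310 of 47937). Genes that passed edgeR's expression filter in 12 libraries (11760) were fitted with 1 mean per group (edgeR 4.0.16 in R 4.3.3, TMM, robust quasi-likelihood, Benjamini-Hochberg over all genes tested). Interaction contrasts compared both states. On simulated counts for this comparison with 11638 genes, 200 of them changed, edgeR found 75% of log2 changes of 0.5 and 96% of those of 1. DESeq2 found 67% and 87%. The changed genes left out those at a low level in M0 and were split evenly between directions, so these shares do not cover genes with few reads. Named genes were those with the largest fold changes (12 a direction, mean log2 CPM of 2 or more, groups not overlapping), the smallest p (5 a direction), up to 4 per list and the genes the study discusses, 181 in all with 15 chosen after values were seen; a few other genes are not reported here. The members and gene lists were chosen with earlier results of these data known. Alternatives were DESeq2 1.42.0, other size factors and filters, a replicate block, a GC and length trend, and each library left out. Promoters are from RefSeq (GRCm38.p6). Of the named genes, 9 share over 20% of their exons with another gene.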

Additional observations from a re-analysis of the deposited data

Results flagged for a closer look

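The response to DGAT1i differed between resting and stimulated macrophages in 79 of the 181 named genes, by edgeR's quasi-likelihood interaction test at an adjusted p under 0.05 (18.5% of all genes tested). Each value below is the log2 fold change in resting cells minus that in stimulated cells. It was above 0 in 53 genes and under 0 in 26, and in 42 genes the 2 log2 fold changes had opposite signs. Of all genes tested that differed, it was above 0 in 1152 and under 0 in 1019. Many named genes were chosen by their change in resting cells, so their share that differed cannot be set against that of all genes. Causes were not tested.

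In the antioxidant and iron group, the difference was 2.08 for Gsta3, -0.86 for Slc40a1, 0.60 for Fth1, 0.57 for Prdx1, 0.56 for Gclm, 0.55 for Gstm1, -0.44 for Gpx4, 0.43 for Cat, -0.37 for Gpx1, -0.32 for Hmox1 and 0.23 for Srxn1. In the amino acid and mitochondrial stress groups it was 1.80 for Trib3, 1.34 for Gdf15, 1.22 for Atf5, 0.95 for Mthfd2, 0.63 for Atf4, 0.60 for Hspa9, 0.59 for Ddit3, 0.55 for Dnaja3, 0.50 for Psat1, 0.36 for Hspd1 and 0.30 for Slc3a2. In the ER stress group it was -0.66 for Eif2ak3 and 0.51 for Atf6.

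Among lipid genes, the difference was -0.91 for Scd2, -0.85 for Lpin1, 0.67 for Cpt1a, -0.58 for Abca1, 0.48 for Pnpla2, 0.48 for Mylip, 0.46 for Msmo1, 0.39 for Lpin2 and 0.24 for Npc1. Among eicosanoid genes it was -2.86 for Ptgs1, 1.87 for Ptges, 1.19 for Ptger2, 0.73 for Ptges2 and 0.53 for Pla2g7, and Ptgs1 had 7 and 6 reads in stimulated cells without and with DGAT1i. Among genes of glycolysis, respiration and xenobiotic metabolism it was 0.70 for mt-Nd6, 0.62 for Pfkfb3, 0.60 for Por, 0.51 for Abcc3, 0.34 for mt-Co1 and -0.26 for Slc16a3.

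Among chemokines, cytokines and innate sensors, the difference was 2.03 for Ccl3, -1.33 for Ccr2, 1.30 for Ccl4, 0.98 for Nlrp1b, 0.73 for Nod2, 0.70 for Csf3r, -0.53 for Ccl9 and 0.45 for Tgfb1. Among receptors, surface proteins and lysosomal genes it was -3.91 for Spn, 1.71 for Gpr162, 1.58 for Fzd1, -0.89 for Cd14, 0.87 for Msr1, 0.79 for Clec4d, 0.68 for Itgam, 0.66 for Ctsh, 0.54 for Lgmn, 0.48 for Mertk, 0.47 for Cd300a, 0.38 for Jag1 and 0.36 for Lyz2, where Spn had 8 and 28 reads in stimulated cells. Among activation, cytoskeletal and ribosomal genes it was -1.44 for Chil3, 0.82 for Tgm2, -0.64 for Mrc1, -0.62 for Rpl10a, -0.46 for Itga6, 0.42 for Vim and -0.33 for Rpl3.

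In the cell cycle and p53 group, the difference was -2.64 for Ccnb2, -1.78 for Bub1b, -1.004 for Sesn1, -0.99 for Rrm1, -0.64 for Cdk6, -0.52 for Cdkn1a and -0.50 for Ccnd1. Ccnb2 had 8 and 12 reads in stimulated cells, so its value there rests on few reads.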

How the results depend on the processing

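At this depth, values under a few CPM (Gsta3, Ptges, Ptgs1 with DGAT1i) rest on few reads. With DESeq2, the number of genes higher with DGAT1i fell from 1298 to 825 (12 libraries) and 852 (6 resting libraries), and the number called from 2869 to 2111 and 1993. RLE size factors gave 1135 higher and 1722 lower genes, and library size alone 885 and 2092. Leaving out a library gave 2270 to 2610 genes called, 996 to 1155 higher, 1274 to 1455 lower and 328 to 393 past 2-fold. The same fits gave 34 mitosis, 32 to 34 S phase and 20 to 21 NRF2 genes called in the main direction, and 5 to 9 ER stress genes lower, with 5 when the second DGAT1i library was left out; the cause was not tested. No filter on low counts gave 2529 genes called, a fit of the 6 resting libraries 3034, a trend on GC content and length 3001 and an adjusted p under 0.1 gave 3525. Replicate numbers did not pair the samples (correlation of deviations 0.03, 0.01 and -0.02); a replicate block gave 2878 genes called in the resting libraries, and 2268 in place of 2171 genes whose response differs between states. Of 160 named genes called, none changed its direction and 25 lost the call in at least 1 alternative. Ddit3, Hspd1, Ptges2, Nod2, Cebpb and Nlrp1b, which were not called, crossed 0 when a library was left out.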

Other observations

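A few genes rested on a handful of reads over the 3 libraries of a group, and intervals cover counting error only. Tmeff1 had 0 reads in M0 and 14 with DGAT1i, at least 4.55-fold higher taking 3 reads in the group as the floor. Clcf1, a cytokine of the IL-6 family, had 3 and 24 reads, a ratio of 7.79 (95% interval 2.37 to 40.4), and Acod1, the enzyme that makes itaconate, had 2 and 12 reads, a ratio of 5.84 (1.30 to 53.8). Gpr18, a receptor for lipid mediators, had 6 reads in M0 and 0 with DGAT1i, at least 2.05-fold lower.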
